A study of Arabidopsis thaliana with 16 samples.

Results

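The cap-binding translation initiation factors described here are 10 nuclear genes, taken by locus from both count tables of 27628 genes. They are the cap-binding proteins eIF4E (AT4G18040), eIFiso4E (AT5G35620) and nCBP (AT5G18110), the scaffolds eIF4G (AT3G60240), eIFiso4G1 (AT5G57870) and eIFiso4G2 (AT2G24050), the helicases eIF4A1 (AT3G13920) and eIF4A2 (AT1G54270), and the helicase cofactors eIF4B1 (AT3G26400) and eIF4B2 (AT1G13020). All 10 passed the filter on low counts in both assays. The plants were Arabidopsis seedlings 10 days old, either wild type (Col-0) or mutant (fust1), kept at 22 °C or given a heat shock at 37 °C. Whole seedlings were read by RNA-seq of poly(A) RNA and by Ribo-seq, which counts the RNA stretches covered by ribosomes (footprints). Each combination of genotype, temperature and assay had 2 libraries, so 16 in 8 groups. The labels give neither the length of the heat nor the nature of the fust1 allele, and call the libraries biological replicates without naming cultures.

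In eukaryotes most mRNAs are read from a capped 5′ end. A cap-binding protein (eIF4E) docks on a large scaffold (eIF4G), which also holds the RNA helicase eIF4A, and eIF4B assists the helicase. Together they form the eIF4F complex, which opens the 5′ leader and brings in the small ribosomal subunit. Plants have a second version, eIFiso4F, built from eIFiso4E and an eIFiso4G scaffold, and a divergent cap-binding protein, nCBP.

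Library totals ran from 9402134 to 12737375 counts for RNA and from 6175906 to 13968790 for footprints, with the 2 shallowest footprint libraries from Col-0 at 37 °C. Values in CPM, a count scaled to the library's total, carry a further TMM factor, which sets the typical gene about equal between libraries. TMM factors for footprints were 1.76 to 1.96 at 22 °C against 0.489 to 0.614 at 37 °C. With plain library totals the median footprint change of all genes in Col-0 was -2.01 on the log2 scale, and -0.21 with TMM. For RNA it was -1.13 with totals and -0.10 with TMM. A change below is therefore relative to the typical gene, and ratios between genes of a library, which need no scaling, are given beside it. The shoot markers CAB1 and RBCS1A had counts in every library, with summed footprints of 4860 to 6548 CPM at 22 °C and 2822 to 3169 CPM at 37 °C. On the log2 scale with TMM, CAB1 footprints changed under heat by -0.34 in Col-0 and -0.07 in fust1. Those of RBCS1A changed by -1.45 and -1.36. Summed footprints of the root markers PYK10 and COBL9 were 1019 to 1316 CPM at 22 °C and 261 to 378 CPM at 37 °C, with COBL9 at 0 in 3 of the 4 heated libraries. COBL9 reached at most 11.8 CPM in footprints and 0.997 CPM in RNA, so the root sums are nearly PYK10 alone. In RNA the shoot markers summed to 22061 to 33204 CPM at 22 °C and 25488 to 46850 CPM at 37 °C, and the root markers to 483 to 1600 CPM and 197 to 507 CPM. Their part in the results was not tested, and in whole seedlings fewer cells of a type and less RNA per cell cannot be told apart.

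The footprints of the 10 genes summed to 1302 to 1602 CPM at 22 °C and 253 to 283 CPM at 37 °C when CPM is taken over plain library totals. Their RNA summed to 958 to 1189 CPM at 22 °C and 453 to 636 CPM at 37 °C on that scale. These ranges do not overlap between temperatures in either assay, but on that scale the typical gene fell too. With library totals the median RNA change of all genes was -1.13 in Col-0 and -1.04 in fust1. The footprint median in Col-0, given above, was lower still. On the TMM scale the members went separate ways, and the split ran within the scaffold genes and within the eIF4A helicase genes.

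**Figure D1:**
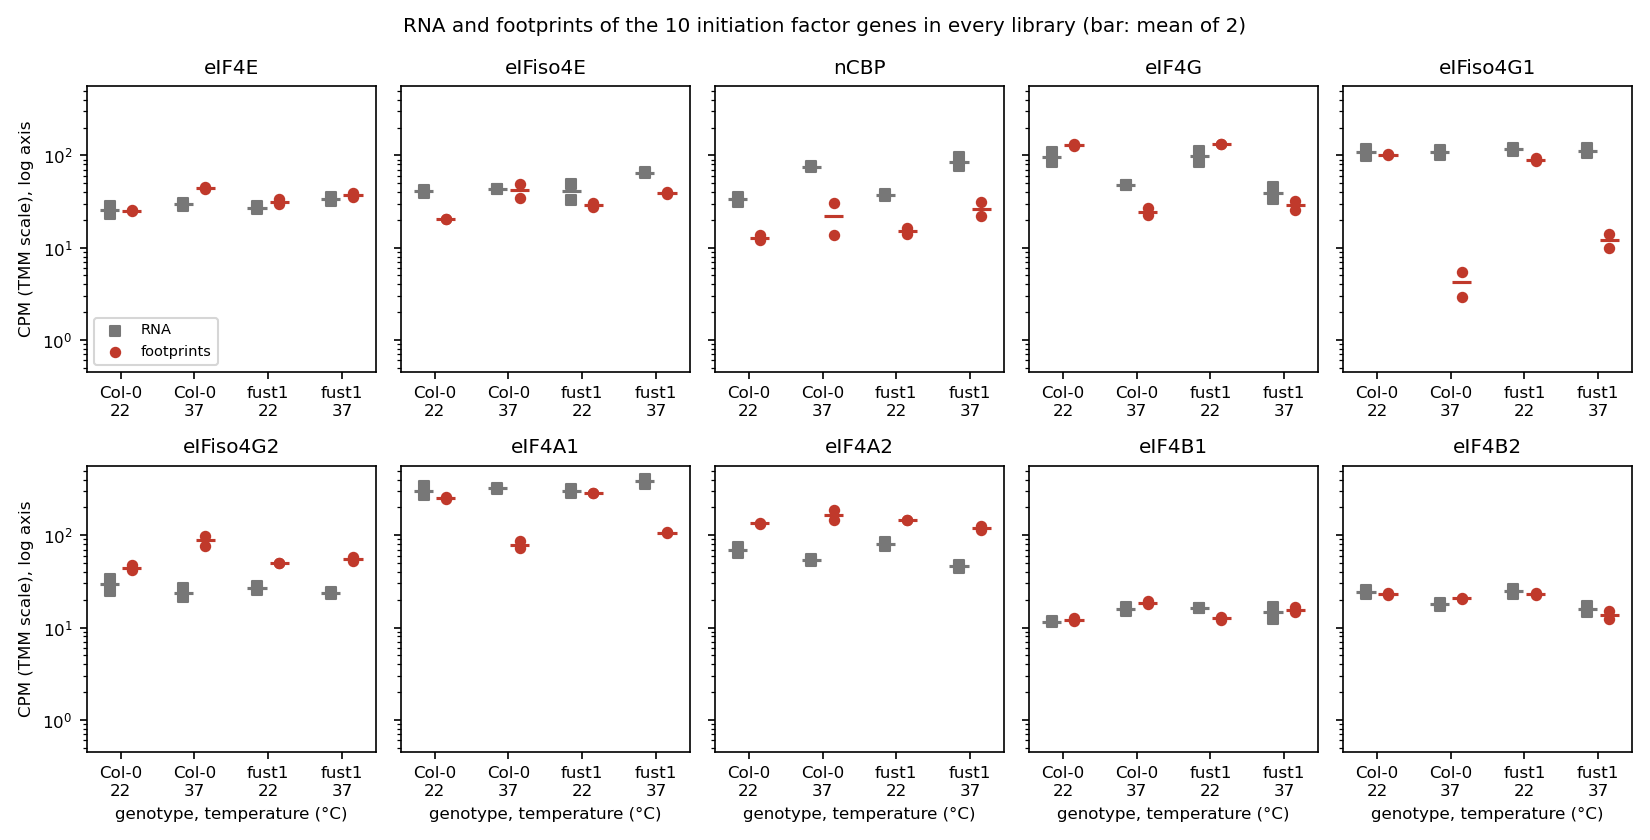
CPM on the TMM scale (log axis) of RNA (grey squares) and footprints (red circles) for each of the 10 genes, with every library as a point, a bar at the mean of 2, and groups by genotype and temperature in °C. Footprints of eIFiso4G1 drop from 86.3 to 103 CPM at 22 °C to 2.94 to 14.2 CPM at 37 °C while its RNA stays between 99.3 and 121 CPM in all 8 RNA libraries.

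The scaffolds showed the widest split. Footprints of eIFiso4G1, a scaffold of eIFiso4F, were 100 and 103 CPM in Col-0 at 22 °C and 2.94 and 5.48 CPM at 37 °C. In counts, these were 2424 and 1997 reads against 9 and 18. In fust1 they were 93.4 and 86.3 CPM at 22 °C and 9.99 and 14.2 CPM at 37 °C, from 2343 and 2356 reads against 55 and 104. All heated libraries lay far below all 22 °C libraries, and the heated fust1 libraries lay above the heated Col-0 libraries.

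The fall in eIFiso4G1 footprints was -4.58 ± 0.25 in Col-0 (log2 change ± SE), 23.9-fold, with adjusted p = 2.24e-15 in edgeR's quasi-likelihood test. In fust1 it was -2.87 ± 0.18, 7.33-fold, adjusted p = 1.54e-13. The RNA of eIFiso4G1 was not called in either genotype. It was 118 and 99.3 CPM in Col-0 at 22 °C and 116 and 99.9 CPM at 37 °C, a log2 change of -0.01 ± 0.19 with adjusted p = 0.965. Heated and unheated RNA libraries thus overlap. In fust1 the RNA change was -0.05 ± 0.19, adjusted p = 0.864. With library totals these RNA changes were -1.04 and -0.97, and called, close to the shift of the typical gene.

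Translation efficiency (TE) here is the footprint change beyond the RNA change of the same gene. The TE of eIFiso4G1 changed by -4.57 ± 0.33 in Col-0 (adjusted p = 3.23e-08) and by -2.83 ± 0.28 in fust1 (adjusted p = 2.26e-06). It was the 663rd lowest TE change of 17816 genes in Col-0 and the 589th lowest in fust1. Its ratio of footprint to RNA CPM stood at percentile 68.9 of all genes in Col-0 at 22 °C and at percentile 2.88 at 37 °C. In fust1 it moved from percentile 60.0 to percentile 6.39. Its coverage by ribosomes relative to its RNA thus left the upper part of the gene range for the low end in both genotypes.

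eIFiso4G2 is the second eIFiso4G scaffold gene. Its footprints were 42.0 and 47.1 CPM in Col-0 at 22 °C and 98.3 and 77.3 CPM at 37 °C. The heated libraries lay above the others, a change of 0.98 ± 0.16 (adjusted p = 4.37e-06) that turns to -0.83 with library totals, where the typical gene falls further. In fust1 its footprints were 49.9 and 50.5 CPM at 22 °C and 53.0 and 58.1 CPM at 37 °C, which was not called (0.15 ± 0.15, adjusted p = 0.413; -1.53 with library totals). Its RNA was 34.0 and 25.1 CPM in Col-0 at 22 °C and 26.5 and 21.3 CPM at 37 °C, overlapping ranges. RNA of eIFiso4G2 was called in neither genotype (-0.30 ± 0.22 and -0.18 ± 0.22, adjusted p = 0.292 and 0.532). The TE of eIFiso4G2 rose in Col-0 by 1.28 ± 0.27 (adjusted p = 0.00139), a call lost with library totals (0.50, adjusted p = 0.204). In fust1 it was 0.33 ± 0.27, adjusted p = 0.388 (-0.42 with library totals, adjusted p = 0.286).

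eIF4G, the scaffold of eIF4F, lost both RNA and footprints. Its footprints were 125 and 133 CPM in Col-0 at 22 °C and 22.5 and 26.8 CPM at 37 °C, and in fust1 134 and 132 CPM against 25.8 and 32.4 CPM. The ranges at the 2 temperatures are well apart. The footprint change was -2.39 ± 0.17 in Col-0 (adjusted p = 1.28e-12) and -2.19 ± 0.16 in fust1 (adjusted p = 1.42e-12). Its RNA was 108 and 85.7 CPM in Col-0 at 22 °C and 47.7 and 48.3 CPM at 37 °C, and in fust1 111 and 84.1 CPM against 45.4 and 33.6 CPM. Both genotypes thus had less eIF4G RNA in every heated library. The log2 change was -1.01 ± 0.22 in Col-0 (adjusted p = 0.00511) and -1.31 ± 0.23 in fust1 (adjusted p = 0.00122). The Col-0 RNA call was lost without replicate 1 of Col-0 RNA at 22 °C (-0.81, adjusted p = 0.0757). Its TE change was -1.37 ± 0.29 in Col-0 (adjusted p = 0.00128) and -0.88 ± 0.28 in fust1 (adjusted p = 0.0253). The fust1 TE call was lost, at adjusted p from 0.0589 to 0.115, without fust1 22 °C RNA replicate 2, fust1 37 °C RNA replicate 1, fust1 22 °C footprint replicate 1 or 2, or fust1 37 °C footprint replicate 1.

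The other scaffolds stood elsewhere by the same ratio of footprint to RNA CPM. eIFiso4G2 was at percentile 86.9 of all genes in Col-0 at 22 °C and at percentile 93.4 at 37 °C, and in fust1 at percentiles 92.0 and 88.1. eIF4G went from percentile 83.1 to percentile 43.3 in Col-0, and in fust1 it went from 84.7 to 54.6. Of the 3 scaffold genes, eIFiso4G2 was thus the one that stayed near the top of the range in both genotypes.

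**Figure D2:**
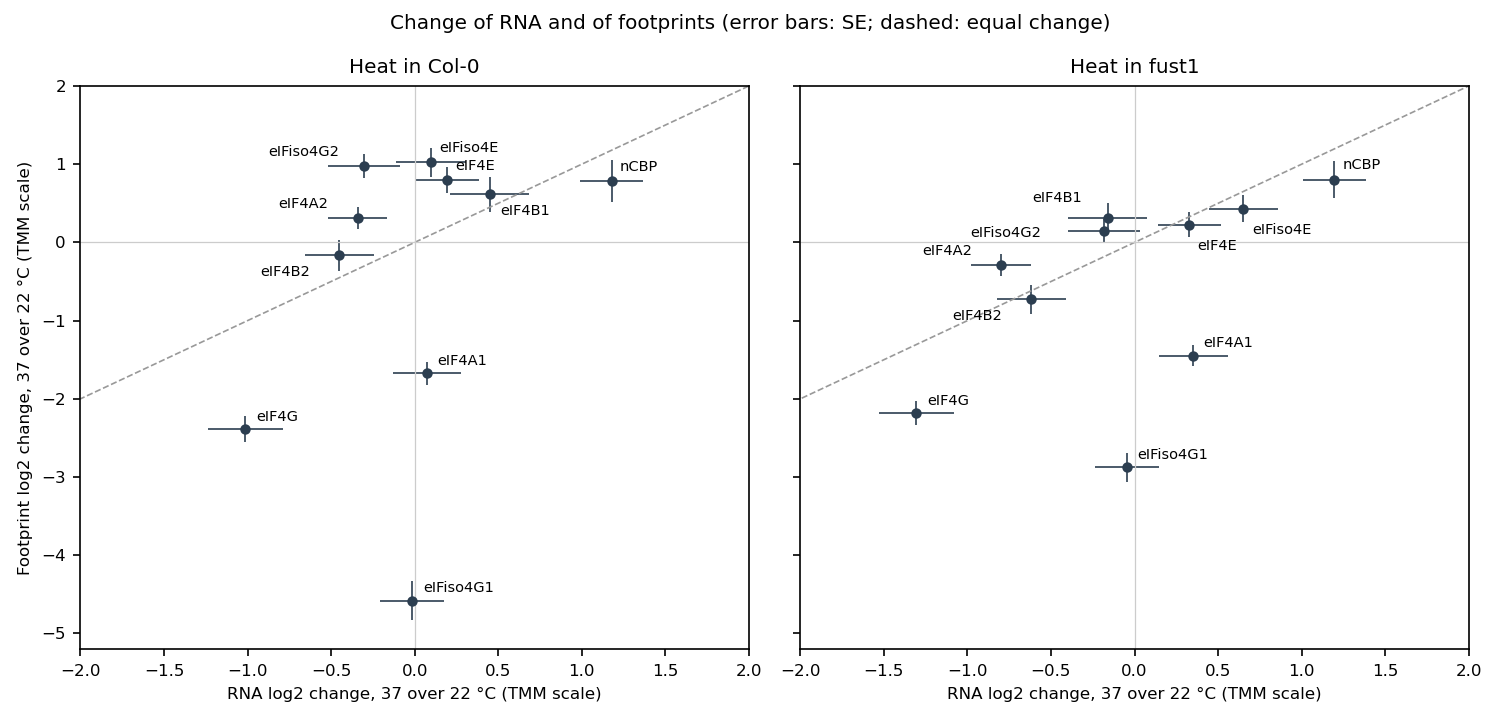
Log2 change of RNA (x axis) and of footprints (y axis) from 22 to 37 °C on the TMM scale for the 10 genes, in Col-0 and fust1, with bars of 1 SE and a dashed line where both changes are equal. eIFiso4G1, eIF4G and eIF4A1 lie furthest below the line in both panels, with eIFiso4G1 at -4.58 in Col-0 and -2.87 in fust1 for footprints. nCBP also lies below it in both panels, and eIF4E, eIFiso4E and eIF4B2 do in fust1. The positive footprint changes turn negative if library totals replace TMM.

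The helicase genes also split. eIF4A1 had footprints of 245 and 261 CPM in Col-0 at 22 °C and 86.5 and 72.1 CPM at 37 °C. In fust1 they were 289 and 291 CPM at 22 °C and 105 and 107 CPM at 37 °C. Heated libraries lay below in both genotypes. The changes were -1.67 ± 0.14 in Col-0 (adjusted p = 6.18e-11) and -1.45 ± 0.14 in fust1 (adjusted p = 5.06e-10). Its RNA was 340 and 271 CPM in Col-0 at 22 °C and 324 and 318 CPM at 37 °C, overlapping ranges. RNA of eIF4A1 was not called in either genotype (0.07 ± 0.20 and 0.35 ± 0.20, adjusted p = 0.798 and 0.201), and these small values turn to -0.95 and -0.58 with library totals. TE of eIF4A1 changed by -1.75 ± 0.24 in Col-0 (adjusted p = 2.43e-05) and by -1.80 ± 0.24 in fust1 (adjusted p = 3.26e-05).

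eIF4A2, the other helicase gene, had footprints at 133 and 135 CPM in Col-0 at 22 °C and 186 and 146 CPM at 37 °C, and in fust1 145 and 148 CPM against 125 and 115 CPM. Neither change was called (0.31 ± 0.14 in Col-0 and -0.29 ± 0.14 in fust1, adjusted p = 0.0598 and 0.0763), and the Col-0 value turns to -1.49 with library totals. The Col-0 change passed the threshold without Col-0 37 °C footprint replicate 2 (0.40, adjusted p = 0.0414) and after thinning all footprint libraries to 1 depth (0.33, adjusted p = 0.0478). The fust1 change passed it without fust1 37 °C replicate 1 or either Col-0 37 °C footprint library, and with RLE scaling, DESeq2 or no filter (adjusted p from 0.0328 to 0.0499), and with library totals (-1.97, adjusted p = 9.69e-12). Its RNA was 84.0 and 76.6 CPM in fust1 at 22 °C and 47.9 and 44.5 CPM at 37 °C. It fell there by 0.80 ± 0.18 (adjusted p = 0.00566), and was -0.34 ± 0.18 in Col-0 (adjusted p = 0.153). Its TE rise in Col-0 (0.65 ± 0.23, adjusted p = 0.0346) was called in 11 of 24 alternatives. It was lost, at adjusted p from 0.0537 to 0.256, without replicate 1 of Col-0 22 °C RNA, replicate 2 of Col-0 37 °C RNA, replicate 1 of Col-0 37 °C footprints, or any of the 6 footprint libraries outside Col-0 at 37 °C. The call was lost too with RLE scaling, no filter or only the groups compared (adjusted p = 0.0596, 0.0636 and 0.0756), and with library totals (-0.12, adjusted p = 0.719). eIF4A1 and eIF4A2 are close copies, and how reads matching both were counted is not given, so the division of reads between them is uncertain.

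On the TMM scale the cap-binding proteins did not show the falls of eIF4G, eIFiso4G1 and eIF4A1. Footprints of eIF4E were 25.1 and 25.5 CPM in Col-0 at 22 °C and 45.1 and 42.9 CPM at 37 °C. This rise of 0.80 ± 0.17 (adjusted p = 0.000207) turns to -0.999 with library totals. In fust1 they were 29.7 and 33.6 CPM against 38.9 and 35.4 CPM, which was not called (0.23 ± 0.16, adjusted p = 0.227; -1.45 with library totals). Its RNA was called in neither genotype (0.19 ± 0.19 and 0.33 ± 0.19, adjusted p = 0.449 and 0.198; -0.84 and -0.60 with library totals), nor its TE (0.61 ± 0.25 in Col-0 and -0.10 ± 0.24 in fust1, adjusted p = 0.0616 and 0.796). With library totals its TE was -0.16 in Col-0 (adjusted p = 0.702) and fell in fust1 (-0.86, adjusted p = 0.0212).

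eIFiso4E, the cap-binding partner of the eIFiso4G scaffolds, had footprints of 20.5 and 20.4 CPM in Col-0 at 22 °C and 49.3 and 34.4 CPM at 37 °C, and in fust1 27.8 and 30.3 CPM against 40.3 and 38.0 CPM. Heated libraries lay above in both genotypes. Its scaffold eIFiso4G1 moved the other way in the same libraries on the TMM scale, though with library totals both fell. The eIFiso4E rise was 1.03 ± 0.18 in Col-0 (adjusted p = 2.39e-05) and 0.43 ± 0.17 in fust1 (adjusted p = 0.0324), with values of -0.78 and -1.25 under library totals. The fust1 call was lost with RLE scaling, with DESeq2, with no filter, and without any of the 4 fust1 footprint libraries (adjusted p from 0.0536 to 0.186). Its TE rose in Col-0 by 0.93 ± 0.29 (adjusted p = 0.0170; 0.16 and not called with library totals). Without Col-0 22 °C RNA replicate 1, either Col-0 22 °C footprint library or Col-0 37 °C footprint replicate 1, that call was lost (adjusted p from 0.0508 to 0.176). In fust1 its TE was -0.22 ± 0.28 (adjusted p = 0.597), or a called fall of -0.96 with library totals (adjusted p = 0.0193). Its RNA there had a rise of 0.65 ± 0.21 (adjusted p = 0.0292) that turns to -0.29 with library totals. The RNA call was lost without 5 of the 8 RNA libraries: both of Col-0 at 22 °C, fust1 22 °C replicate 1 and both of fust1 at 37 °C (adjusted p from 0.0537 to 0.222). In Col-0 its RNA was 0.10 ± 0.21, adjusted p = 0.737 (-0.93 with library totals).

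nCBP was the member whose RNA rose most. Its RNA was 35.1 and 31.6 CPM in Col-0 at 22 °C and 76.1 and 74.9 CPM at 37 °C, and in fust1 38.5 and 36.3 CPM against 75.9 and 95.5 CPM. All heated libraries lay above all others, with changes of 1.18 ± 0.19 (adjusted p = 0.000719) and 1.195 ± 0.19 (adjusted p = 0.000683). With library totals the sign held but neither was called (0.15 and 0.27). Its footprints were 13.7 and 12.04 CPM in Col-0 at 22 °C and 13.7 and 30.4 CPM at 37 °C, so the heated libraries differ and reach down to the 22 °C range. The footprint call in Col-0 (0.78 ± 0.26, adjusted p = 0.0127) rests on replicate 2 at 37 °C: without it the change was 0.01, adjusted p = 0.981. It was also lost without replicate 2 at 22 °C (0.69, adjusted p = 0.0701). In fust1 its footprints were 16.5 and 14.1 CPM at 22 °C and 22.0 and 31.1 CPM at 37 °C. The fust1 change was 0.80 ± 0.23 (adjusted p = 0.00469), lost without replicate 2 at 37 °C (0.48, adjusted p = 0.146) or at 22 °C (0.69, adjusted p = 0.0541). Both footprint values turn negative with library totals, at -0.999 and -0.86. TE of nCBP was not called on the TMM scale (-0.40 ± 0.37 in Col-0 and -0.39 ± 0.35 in fust1, adjusted p = 0.415 and 0.433), and fell with library totals (-1.14 and -1.13, adjusted p = 0.0285 and 0.0267). Without replicate 2 of Col-0 footprints at 37 °C the Col-0 value was -1.17, adjusted p = 0.0170.

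For the eIF4B cofactors, which assist the helicase, the log2 changes of RNA and footprints lay between -0.73 and 0.61 on the TMM scale. eIF4B1 footprints were 12.6 and 11.6 CPM in Col-0 at 22 °C and 18.0 and 19.2 CPM at 37 °C. This rise of 0.61 ± 0.22 (adjusted p = 0.0175) turns to -1.18 with library totals. It was lost without Col-0 22 °C replicate 2 (0.55, adjusted p = 0.101), 37 °C replicate 1 (0.57, adjusted p = 0.0721) or 37 °C replicate 2 (0.49, adjusted p = 0.136). In fust1 the change was 0.31 ± 0.20, adjusted p = 0.186 (-1.37 with library totals). eIF4B2 footprints were 22.7 and 23.5 CPM in Col-0 at 22 °C and 20.9 and 20.4 CPM at 37 °C (-0.16 ± 0.20, adjusted p = 0.494). In fust1 they were 23.5 and 22.2 CPM against 12.4 and 15.03 CPM, a change of -0.73 ± 0.19 (adjusted p = 0.00170). eIF4B2 RNA fell in fust1 by 0.62 ± 0.21 (adjusted p = 0.0350), a call lost with DESeq2 and without any of 6 of the 8 RNA libraries, all but the 2 of Col-0 at 37 °C (adjusted p from 0.0585 to 0.195). No other change of eIF4B RNA or TE under heat was called on the TMM scale. RNA of eIF4B1 was 0.45 ± 0.24 in Col-0 and -0.16 ± 0.24 in fust1, and RNA of eIF4B2 in Col-0 was -0.45 ± 0.20 (adjusted p = 0.155, 0.620 and 0.104). With library totals, RNA of eIF4B2 fell in Col-0 (-1.48, adjusted p = 0.000268), as did RNA of eIF4B1 in fust1 (-1.09, adjusted p = 0.00383) and TE of eIF4B2 in fust1 (-0.87, adjusted p = 0.0230), and RNA of eIF4B1 in Col-0 turned to -0.58 (adjusted p = 0.0611).

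Counted over the 10 genes, heat in Col-0 raised the RNA of 1 and lowered that of 1 on the TMM scale, where 37.3% of all 19340 genes were called, 19.2% higher and 18.2% lower. For footprints it raised 5 and lowered 3, against 59.7% of 18445 genes (27.8% higher, 31.8% lower). For TE it raised 3 and lowered 3, against 37.0% of 17816 genes (15.5% higher, 21.5% lower). In fust1 the RNA of 2 rose and that of 3 fell, against 36.7% of all genes (18.8% higher, 17.9% lower). Footprints of 2 rose and of 4 fell, against 58.8% (27.6% higher, 31.2% lower). For TE none rose and 3 fell, against 28.3% (12.5% higher, 15.7% lower), with 1 rise at an unadjusted p under 0.05 in edgeR and 3 calls in all by DESeq2. With library totals every called RNA, footprint and TE change of the members under heat was a fall, and for TE these were 4 in Col-0 (eIF4G, eIFiso4G1, eIF4A1 and nCBP) and 7 in fust1. With library totals RNA calls rose over all 19340 genes too, to 12155 in Col-0 and 10831 in fust1. The share of all genes for footprints and TE with library totals is not given here. The shares on the TMM scale are not far from the background, so the counts say little about the members. The sizes within families carry the description. The median footprint change of the 10 was 0.46 in Col-0 and -0.07 in fust1, against -0.21 and -0.13 over all genes.

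Ratios of paired genes within a library need no scaling factor, and were compared between the 4 libraries at 37 °C and the 4 at 22 °C. There were 10 such comparisons, tested by a two-sided exact permutation test whose smallest possible p is 0.0286. eIFiso4G1 had 2.39 and 2.19 footprints for each footprint of eIFiso4G2 in Col-0 at 22 °C, and 0.0315 and 0.0727 at 37 °C. In fust1 the ratio was 1.87 and 1.71 at 22 °C and 0.19 and 0.246 at 37 °C. All 4 heated libraries lay below all 4 at 22 °C, with the Col-0 libraries lowest. The difference was -4.32 on the log2 scale, 19.9-fold (exact permutation p = 0.0286, adjusted over the 10 comparisons 0.0409), with -5.58 within Col-0 and -3.05 within fust1. The RNA ratio of the pair lay between 3.48 and 4.88 in all 8 libraries, a difference of 0.21 (exact permutation p = 0.0571, adjusted 0.0714).

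eIF4A1 had 1.83 and 1.94 footprints for each of eIF4A2 in Col-0 at 22 °C and 0.465 and 0.493 at 37 °C. In fust1 the ratio was 2.00 and 1.97 at 22 °C and 0.841 and 0.936 at 37 °C. Again all 4 heated libraries lay below the 4 at 22 °C. The difference was -1.57 on the log2 scale (exact permutation p = 0.0286, adjusted 0.0409), with -1.98 in Col-0 and -1.16 in fust1. Their RNA ratio moved the other way, by 0.78 (exact permutation p = 0.0286, adjusted 0.0409), from between 3.41 and 4.60 at 22 °C to between 5.86 and 9.17 at 37 °C.

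For eIF4G against eIFiso4G1 the footprint ratio went from between 1.25 and 1.52 at 22 °C to 7.32 and 4.78 in heated Col-0 and 2.57 and 2.27 in heated fust1. The difference was 1.46 (exact permutation p = 0.0286, adjusted 0.0409), against -1.12 for RNA at the same p. The footprint call was lost without any one of the 4 footprint libraries at 22 °C (1.42 to 1.52, exact permutation p = 0.0571). The footprint ratios at 22 and 37 °C stayed apart in each of these cases. eIF4G thus lost more of its RNA than eIFiso4G1 did, and less of its footprints. eIF4B1 rose against eIF4B2 by 0.67 in RNA and 0.92 in footprints (exact permutation p = 0.0286 for each, adjusted 0.0409). The RNA call was lost without any one of 7 of the 8 RNA libraries, all but fust1 22 °C replicate 2 (0.56 to 0.77, exact permutation p = 0.0571). The RNA ratios of this pair did not overlap either, but came as near as 0.713 at 22 °C and 0.723 at 37 °C, both in fust1. The pair eIF4E and eIFiso4E gave -0.13 for RNA and -0.20 for footprints (exact permutation p = 0.486 and 0.143, adjusted 0.486 and 0.159).

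**Figure D3:**
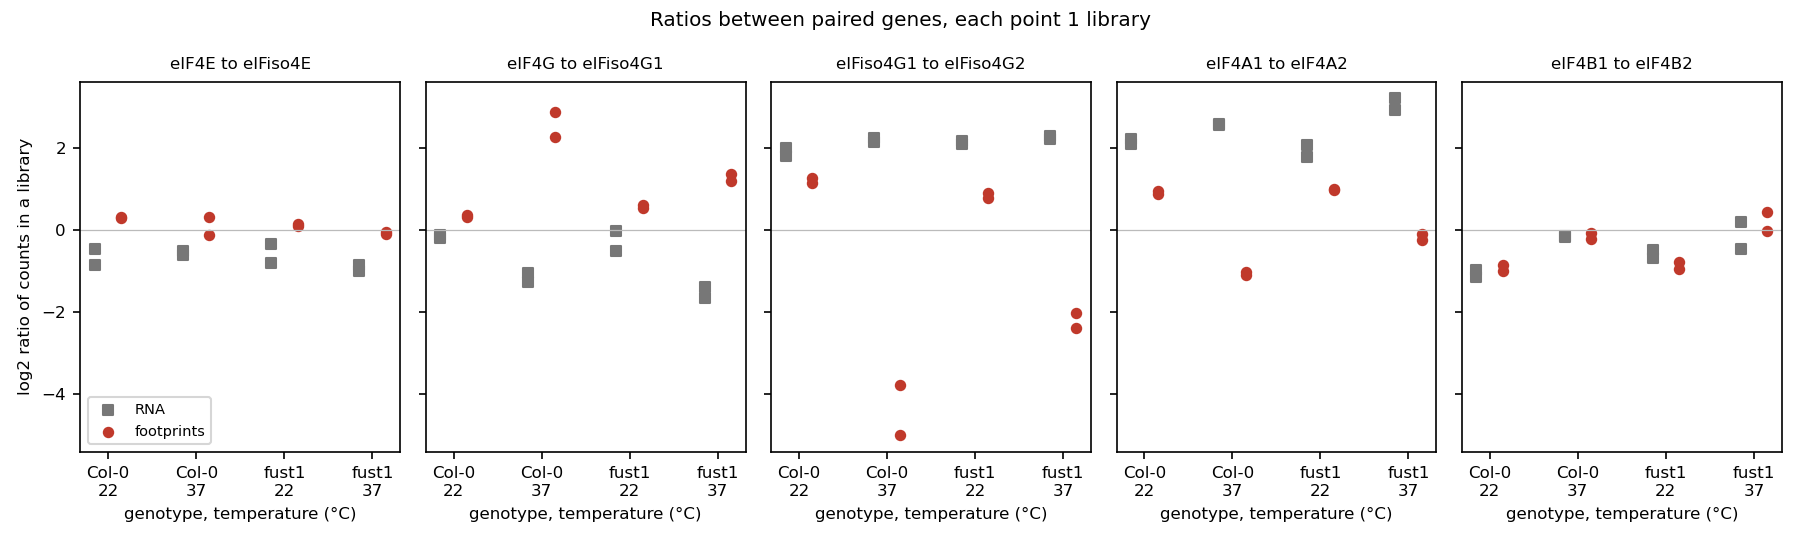
Log2 ratio of counts between paired genes in each library (y axis), by genotype and temperature in °C, for RNA (grey squares) and footprints (red circles). The footprint ratio of eIFiso4G1 to eIFiso4G2 falls by 5.58 in Col-0 and 3.05 in fust1, and that of eIF4A1 to eIF4A2 by 1.98 and 1.16, while their RNA ratios do not fall.

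By share of the footprints of the 3 scaffold genes, eIFiso4G2 held 15.7% and 16.6% in Col-0 at 22 °C and 79.4% and 70.6% at 37 °C. In fust1 it held 18.0% and 18.8% at 22 °C and 59.7% and 55.5% at 37 °C. eIFiso4G1 held 32.2% to 37.5% in the 4 libraries at 22 °C, 2.37% and 5.00% in heated Col-0, and 11.2% and 13.6% in heated fust1. eIF4G held 46.8% to 49.0% at 22 °C and 18.2% to 30.9% at 37 °C. In RNA the share of eIFiso4G2 stayed between 10.2% and 14.1% in all 8 libraries. These are shares of reads, not corrected for gene length, so the change between temperatures and not the order of the genes is to be read from them.

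The comparison of fust1 with Col-0 asked whether the mutant differs in these factors. At 22 °C no member was called in RNA, footprints or TE by edgeR or by DESeq2, with 0, 2 and 0 at an unadjusted p under 0.05 in edgeR and backgrounds of 0.0569%, 4.38% and 0.00561% of all genes. The 2 were the footprints of eIF4E (0.33 ± 0.15, adjusted p = 0.274) and eIFiso4E (0.50 ± 0.17, adjusted p = 0.0834). The latter passed the threshold when only the 22 °C groups were fitted and without any of the 4 footprint libraries at 37 °C (0.53, adjusted p from 0.0109 to 0.0339). At 37 °C the RNA of no member was called by edgeR or DESeq2, with 1 at an unadjusted p under 0.05 (0.0517% of all genes called). That was eIFiso4E at 0.57 ± 0.21, adjusted p = 0.253. Over all 19340 genes this comparison had 10 calls by edgeR and 305 by DESeq2, so the background depended on the test used.

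Among heated footprints 3 of 10 members were called, 1 higher and 2 lower in fust1, against 10.7% of all genes (6.11% higher, 4.62% lower). eIFiso4G1 was higher in fust1 by 1.53 ± 0.30 (adjusted p = 0.00143). eIFiso4G2 was lower (-0.66 ± 0.16, adjusted p = 0.00821), and eIF4A2 also (-0.48 ± 0.14, adjusted p = 0.0322). The eIFiso4G1 call held in all 16 alternatives, at 1.24 to 2.13. The eIFiso4G2 call was lost with library totals (-0.44, adjusted p = 0.0891) and without replicate 1 of Col-0 at 37 °C (-0.40, adjusted p = 0.226) or of fust1 at 37 °C (-0.52, adjusted p = 0.0626). The eIF4A2 call was lost without either of these (-0.21 and -0.46, adjusted p = 0.507 and 0.0739) and without replicate 2 of fust1 at 37 °C (-0.34, adjusted p = 0.25), with library totals and with only the groups compared (adjusted p = 0.262 and 0.0635). eIF4A1 was not called (0.42 ± 0.15, adjusted p = 0.0603) but passed the threshold without replicate 1 of Col-0 or of fust1 at 37 °C (0.64 and 0.51, adjusted p = 0.0443 and 0.0434), with library totals (0.63, adjusted p = 0.00767) and with no filter (0.43, adjusted p = 0.0497). nCBP passed it without replicate 2 of Col-0 at 37 °C (from 0.27 to 1.03, adjusted p = 0.0362).

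For TE at 37 °C only eIFiso4G1 was called among the members (1.45 ± 0.35, adjusted p = 0.0494; 1.32% of all genes, 1.14% higher). In 18 of 24 alternatives that call was lost, with adjusted p up to 0.203. Among them are all libraries left out in turn except Col-0 37 °C RNA replicate 1, Col-0 37 °C footprint replicate 2 and fust1 37 °C footprint replicate 1.

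Whether the heat response itself differed between genotypes was tested by the interaction of heat and genotype. For footprints it was called for eIFiso4G1 (1.71 ± 0.34, adjusted p = 0.00201) and eIFiso4G2 (-0.83 ± 0.22, adjusted p = 0.0160), 2 of 10 members against 8.70% of all genes (5.49% higher, 3.21% lower). Footprints of eIFiso4G1 thus fell less in fust1, and those of eIFiso4G2 rose less on the TMM scale or, with library totals, fell further (-0.83 in Col-0 and -1.53 in fust1). The eIFiso4G1 call held in all 15 alternatives, at 1.39 to 2.28, and after thinning all footprint libraries to 6175906 counts it was 1.66, adjusted p = 0.00286. The eIFiso4G2 call was lost with library totals and without replicate 1 of Col-0 at 22 °C, Col-0 at 37 °C or fust1 at 22 °C, or replicate 2 of fust1 at 22 °C (adjusted p from 0.0508 to 0.136). Other footprint interactions were not called, among them eIF4E (-0.57 ± 0.23), eIFiso4E (-0.60 ± 0.25) and eIF4A2 (-0.60 ± 0.20), at adjusted p = 0.129, 0.140 and 0.0574. Without replicate 2 of Col-0 at 37 °C, eIFiso4E and eIF4A2 passed the threshold (-0.80 and -0.72, adjusted p = 0.0485 and 0.0307), and eIF4A2 also after thinning, with no filter and with the replicate number as a block. For eIF4G and eIF4A1 the interaction was 0.20 ± 0.23 and 0.22 ± 0.20 (adjusted p = 0.642 and 0.522).

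No member had a called interaction in RNA (0 at an unadjusted p under 0.05 in edgeR, 0 by DESeq2; 0.0310% of all genes by edgeR). Over all 19340 genes this RNA interaction had 6 calls by edgeR and 178 by DESeq2, so the background depended on the test used. For TE, 1.09% of all genes were called by edgeR, and the share called by DESeq2 is not given here. None of the members was called by edgeR, 3 had an unadjusted p under 0.05, and DESeq2 called 1. That was eIFiso4G1, at 1.74 ± 0.44 with adjusted p = 0.0620 in edgeR and 1.72 with adjusted p = 0.0102 in DESeq2. In edgeR it passed the threshold without Col-0 37 °C RNA replicate 1, Col-0 37 °C footprint replicate 2 or fust1 37 °C footprint replicate 1 (1.63, 2.30 and 2.002, adjusted p = 0.0326, 0.0394 and 0.0434).

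Other initiation genes gave a frame for these values, as lists chosen with earlier results of these data known. A list of 15 cap partners held relatives of eIF4E and eIF4A, the nuclear cap-binding complex, poly(A)-binding proteins, and other reported partners of eIF4E or eIF4A. In Col-0 heat, 6 of 15 were higher and 8 lower for footprints on the TMM scale (median -0.94, all genes -0.21), and 4 higher and 5 lower for TE (median 0.02, all genes -0.00). Over all genes 59.7% were called for footprints (27.8% higher, 31.8% lower) and 37.0% for TE (15.5% higher, 21.5% lower). In fust1, 4 were higher and 7 lower for footprints (median 0.32, all genes -0.13; 58.8% of all genes called), and 2 higher and 6 lower for TE (median -0.09, all genes 0.01; 28.3% called). eIF4A3 (EIF4A-III), the helicase of the exon junction complex, rose in footprints by 1.64 ± 0.14 (adjusted p = 8.17e-11), and the nuclear cap-binding subunit CBP80 (ABH1) by 1.21 ± 0.15 (adjusted p = 1.0e-07), while in CPM over plain library totals eIF4A3 went from 212 ± 12.3 to 189 ± 23.9 and CBP80 from 69.8 ± 2.62 to 46.3 ± 2.91 (mean ± SD, n = 2). The poly(A)-binding protein PAB8 fell (-1.68 ± 0.21, adjusted p = 1.22e-07), as did AT4G01290 (-2.06 ± 0.25, adjusted p = 5.79e-08). For TE, AT4G01290 (-1.84 ± 0.28, adjusted p = 7.74e-05), ECIP1 (AT4G24800, -1.32 ± 0.23, adjusted p = 0.000298) and AT1G22730 (-4.95 ± 0.92, adjusted p = 0.000468, from 178 and 105 footprint reads to 1 and 0) fell, and CBP80 rose (1.36 ± 0.28, adjusted p = 0.000929).

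A list of 24 genes held factors of the preinitiation complex, which carries the initiator tRNA to the start codon. In Col-0 heat, 10 were higher and 9 lower for footprints on the TMM scale (median -0.14, all genes -0.21), against the same 59.7% of all genes called. For TE, 7 were higher and 11 lower (median -0.57, all genes -0.00), against the same 37.0%. In fust1, TE was higher for 3 and lower for 11 (median -0.56, all genes 0.01), against 28.3% (12.5% higher, 15.7% lower). The fust1 footprint median was -0.13, as over all genes. The median RNA change of the list was 0.39 in Col-0 and 0.72 in fust1, against -0.10 and -0.12 over all genes. At the median, its lower TE thus came with higher RNA and with footprints near those of all genes. Subunits of eIF3, the largest factor of that complex, had the smallest adjusted p among the TE changes of the list in Col-0. EIF3C fell by 3.03 ± 0.26 (adjusted p = 1.70e-07), EIF3B-2 by 4.05 ± 0.42 (adjusted p = 1.47e-06), EIF3A by 3.001 ± 0.41 (adjusted p = 2.89e-05) and EIF3E by 1.98 ± 0.28 (adjusted p = 2.93e-05). Footprints of EIF3A went from 2791 and 2431 reads to 16 and 42, and its footprint change was -3.73 ± 0.31 (adjusted p = 2.5e-08). In footprints the smallest adjusted p values after that of AT5G54940 (5.46 ± 0.20, adjusted p = 8.93e-19) were those of AT2G04520 (3.03 ± 0.15, adjusted p = 3.13e-16), EIF3C (-2.69 ± 0.17, adjusted p = 9.96e-14) and AT5G35680 (1.76 ± 0.16, adjusted p = 2.11e-10), the last at 78.6 ± 5.996 and 76.3 ± 0.311 CPM over plain library totals. In TE heat by genotype the smallest adjusted p was 0.083 in this list (EIF2 GAMMA, -1.16 ± 0.32) and 0.144 among the cap partners (AT5G63190, 1.203 ± 0.41). In footprint heat by genotype, 2 of these 24 were called higher and 3 lower, and of the 15 cap partners 2 higher and 1 lower. Over all genes 8.70% were called (5.49% higher, 3.21% lower). Called footprint interactions were thus not confined to the members.

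**Figure D4:**
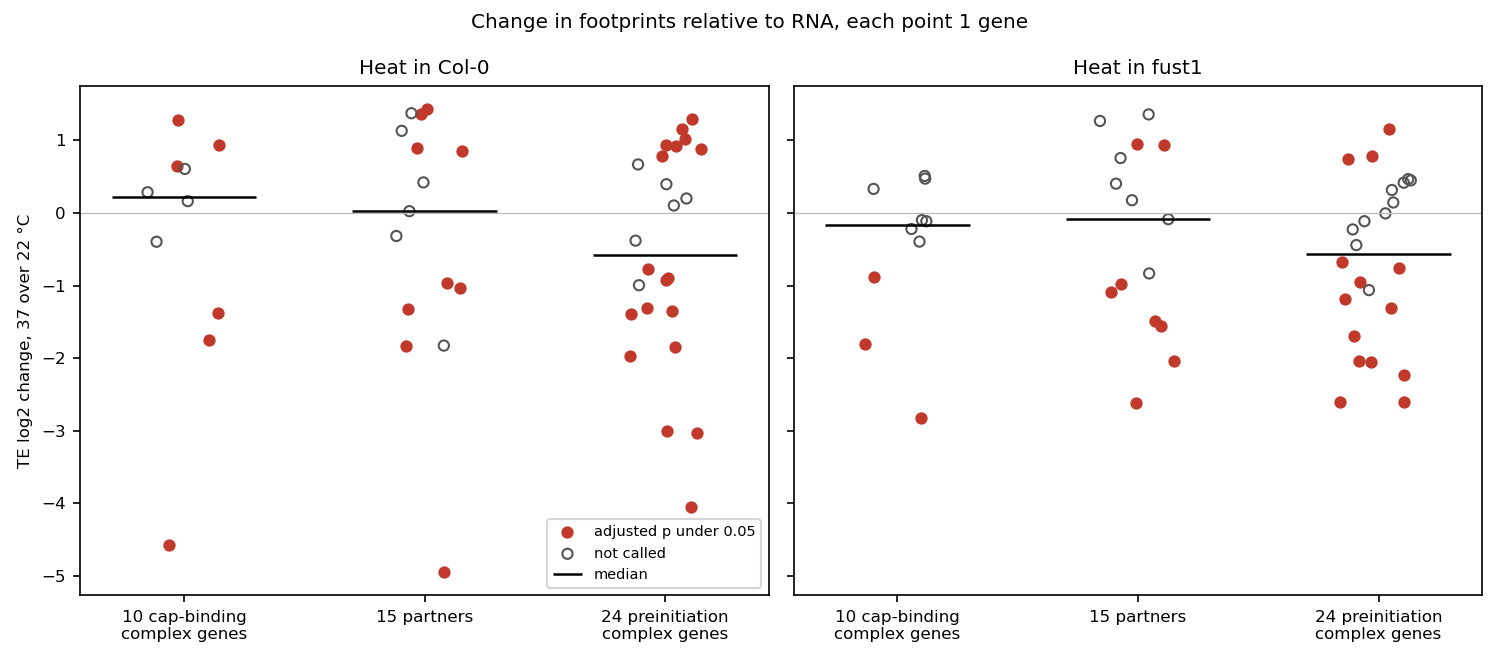
TE log2 change from 22 to 37 °C (y axis) in Col-0 and fust1 for the 10 cap-binding complex genes, 15 cap partners and 24 preinitiation complex genes, each point a gene, filled where the adjusted p is under 0.05, with a line at the median. The medians are 0.22, 0.02 and -0.57 in Col-0 and -0.17, -0.09 and -0.56 in fust1, and the lowest point of the 10 genes is eIFiso4G1 in both panels.

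Across the 16 libraries, with the mean of each assay removed, the members were compared by Pearson's r, over libraries that share temperature and depth. eIFiso4G1 and eIF4A1 were most alike (r = 0.948), followed by eIF4E and eIFiso4E (r = 0.876) and by eIF4G and eIFiso4G1 (r = 0.866). The most opposed pair was eIF4E and eIF4G (r = -0.863). Among 17816 genes, those most like eIFiso4G1 were emb1138 (r = 0.996), VP2 (r = 0.994) and PI-4KBETA1 (r = 0.994). The nearest gene to eIF4A1 was HOG1 (r = 0.980), to eIF4B2 CPL1 (r = 0.985), to nCBP ARL2 (r = 0.964) and to eIF4A2 EXO70H7 (r = 0.940). For eIF4G it was AT1G51570 (r = 0.987), for eIF4E AT4G18593 (r = 0.954), for eIFiso4E AT1G67430 (r = 0.937), for eIFiso4G2 AT1G12310 (r = 0.928) and for eIF4B1 AT2G24550 (r = 0.907).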

How the data were processed

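RNA-seq and Ribo-seq covered the same combinations of genotype and temperature. The deposited values are whole-number read counts per gene with no normalization. Bowtie 1.0.1, fastp 0.19.7, featureCounts 1.6.2, STAR 2.7.3a and the build TAIR10 are listed in the submitters' processing notes. Their role per assay, the counted feature and the treatment of reads matching several genes are not given in the sources used here. Names came from a RefSeq table (assembly TAIR10.1) that held 27420 of the 27628 genes and all 10 members. No protein, transcript or promoter sequence was used here.

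Genes passed filterByExpr of edgeR (minimum count 10, by group): 19340 for RNA, 18445 for footprints and 17816 for both. Counts were scaled by TMM within each assay and tested with edgeR 4.0.16 (quasi-likelihood, robust) in R 4.3.3 over all 8 libraries of an assay (4 residual degrees of freedom). TE was the interaction of assay and comparison over 16 libraries (8 residual degrees of freedom). Adjusted p-values are Benjamini-Hochberg values over all genes tested, called under 0.05. SE was recovered from the log2 change and the F statistic. Ratios used a pseudocount of 0.5. The procedure was tested on simulated data. These held no broad shift between temperatures like the one here, so they do not test the choice of scaling. Since the labels name no cultures, p-values measure the spread between these libraries.

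The members, lists and pairs were chosen with earlier results of these data known. All 10 members are named, with up to 4 genes per list by smallest adjusted p in 3 comparisons (footprints and TE for heat in Col-0, TE heat by genotype) and the genes most correlated with each member (log2 CPM, prior count 2). Alternatives were RLE scaling, library totals, DESeq2 1.42.0, no filter beyond 1 count, nuclear genes only, the replicate number as a block, only the groups compared, each library left out in turn, a ratio pseudocount of 2, and, added after seeing the data, thinned footprint libraries (seed 20240611).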

Additional observations from a re-analysis of the deposited data

Results flagged for a closer look

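Among the members, heat responses that differed between the genotypes were found by the interaction term for the footprints of the scaffold pair. For eIFiso4G1 the heat change in fust1 minus that in Col-0 was 1.71 on the log2 scale (adjusted p = 0.00201, edgeR), with both heated fust1 libraries (9.99 and 14.2 CPM) above both heated Col-0 libraries (2.94 and 5.48 CPM). For eIFiso4G2 it was -0.83 (adjusted p = 0.0160), with both heated fust1 libraries (53.0 and 58.1 CPM) below both heated Col-0 libraries (98.3 and 77.3 CPM). The RNA interaction of the same genes was -0.03 ± 0.27 and 0.12 ± 0.31 (adjusted p = 0.979 and 0.927). The heated Col-0 libraries were also the shallowest; thinned to equal totals, the values were 1.66 and -0.89.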

How the results depend on the processing

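The heat falls in footprints of eIFiso4G1, eIF4G and eIF4A1 kept their direction and call in all 16 alternatives in each genotype, and the TE falls of eIFiso4G1 and eIF4A1 in all 24. For heat by genotype the groups compared are all groups, so no separate fit was run. Library totals in place of TMM moved many values. They turned negative the heat change in RNA of eIF4E (-0.84 in Col-0, -0.60 in fust1), eIFiso4E (-0.93, -0.29) and eIF4A1 (-0.95, -0.58), and of eIF4B1 in Col-0 (-0.58). For footprints they did so in Col-0 for eIF4E (-0.999), eIFiso4E (-0.78), nCBP (-0.999), eIFiso4G2 (-0.83), eIF4A2 (-1.49) and eIF4B1 (-1.18). In fust1 they did so for eIF4E (-1.45), eIFiso4E (-1.25), nCBP (-0.86), eIFiso4G2 (-1.53) and eIF4B1 (-1.37). For TE they did so in Col-0 for eIF4A2 (-0.12), eIF4E (-0.16), eIF4B1 (-0.60) and eIF4B2 (-0.48), and in fust1 for eIFiso4G2 (-0.42), eIF4A2 (-0.25) and eIF4B1 (-0.28). Members called became 8 for RNA in each genotype (from 2 and 5), 10 for fust1 footprints (from 6), 4 and 7 for TE in Col-0 and fust1 (from 6 and 3), 1 for footprint heat by genotype (from 2) and 0 for TE genotype at 37 °C (from 1). The last count was also 0 with RLE scaling, only the groups compared, thinned footprints and the replicate block. Only the groups compared gave 1 member for footprints by genotype at 22 °C (from 0), and DESeq2 gave 1 for TE heat by genotype (from 0). The share of all genes called in those fits is not given here. For Col-0 footprints under heat, library totals left every member called as a fall, where TMM gave 5 higher and 3 lower. eIF4A2 and eIF4B2 were newly called there, at -1.49 and -1.96.

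With 1 library left out, counts of called members ranged from 1 to 2 for RNA heat in Col-0, 3 to 5 in fust1, 1 to 4 for footprint heat by genotype, and 0 to 1 for footprint genotype at 22 °C, TE genotype at 37 °C and TE heat by genotype. Ratio differences ranged from 0.56 to 0.78 (eIF4B1 to eIF4B2, RNA), -0.31 to -0.16 (eIF4E to eIFiso4E, footprints), 1.15 to 1.71 (eIF4G to eIFiso4G1, footprints) and 0.14 to 0.26 (eIFiso4G1 to eIFiso4G2, RNA), where the smallest possible p is 0.0286. Within Col-0 and fust1 alone the differences were 0.10 and -0.35 (eIF4E to eIFiso4E, RNA), 2.22 and 0.71 (eIF4G to eIFiso4G1, footprints), -5.58 and -3.05 (eIFiso4G1 to eIFiso4G2, footprints), 0.42 and 1.15 (eIF4A1 to eIF4A2, RNA) and -1.98 and -1.16 (the same, footprints).

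Within an assay, deviations of same-numbered libraries of different groups correlated at -0.26 to 0.205, with both signs present. In RNA, Col-0 and fust1 gave 0.157 at 22 °C and 0.205 at 37 °C, and in footprints -0.0659 and 0.0264. Whether the replicate number marks pairs was thus not settled. Pairing of an RNA library with the footprint library of the same number was not checked or modelled. With the replicate number as a block within each assay, 162 of 165 results kept their direction and side of the threshold, or their count. The exceptions were the count above, TE genotype at 37 °C of eIFiso4G1 (1.45, adjusted p = 0.0735) and footprint heat by genotype of eIF4A2 (-0.60, adjusted p = 0.0487). The 9 to 104 footprint reads of eIFiso4G1 in heated libraries limit the precision of its change.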
